A study of Mus musculus with 6 samples.

Results

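The receptor tyrosine kinases that tumour cells and macrophages are known to use, Kit, Met, Erbb3, Axl, Mertk, Tyro3, Igf1r, Pdgfrb, Fgfr1 and Csf1r, were followed between day 7 and day 14 of B16 tumour growth. They were taken by name from the gene tables, and all 10 of 10 have a row among the 26754 genes of the series. RNA came from tumours of the mouse melanoma line B16, implanted under the skin of female C57BL/6J mice aged 6 to 8 weeks. Cells were pulled out of the tumours with magnetic beads against CD8a, the CD8 alpha chain, and the label calls them CD8+ T cells. The 2 groups are day 7 and day 14 after implantation, with 3 libraries each. All mice have the genotype given as C57, and neither group had any other treatment in the labels. Nothing in the labels ties a library to an animal, so p-values measure only the spread between these libraries, which may be technical. The labels name no sort after the beads and do not say whether tumours were pooled.

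A receptor tyrosine kinase spans the cell membrane, pairs up when its ligand binds outside the cell, and adds phosphate to tyrosines inside it. Those phosphates recruit adaptors that switch on the RAS-ERK and PI3K-AKT pathways, while phosphatases and ubiquitin ligases end the signal. In melanoma, Kit, Met and Erbb3 are known from the melanocyte lineage, whereas Csf1r, Mertk and Axl are known for the growth of macrophages and their clearance of dead cells. Pdgfrb is the receptor of pericytes and fibroblasts.

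Values are RPKM, reads scaled to gene length and to all reads in genes, so levels of different genes can be set side by side. Depth was 6523019 to 9313078 reads in genes on day 7 and 11385106 to 13316522 on day 14. Genes with a read numbered 13129 to 13803 per day 7 library and 18315 to 19050 per day 14 library. The first and second replicates of day 7 were so alike that they may be 1 library. Low read numbers were mostly even (75.1% to 86.9% of them), so the comparison was made on fragments of 2 reads, for which sampling alone gives a chi-square ratio of 1. The median ratio was 1.10 for these replicates, 40.8 and 44.5 for either with replicate 3, and 4.05 to 4.43 among day 14 libraries. Averaged, they enter as 1 sample, so n is 2 on day 7 and 3 on day 14. All 15 CD8 T cell markers had reads in every library, with a summed level of 554 to 575 RPKM on day 7 and 148 to 156 on day 14, and 7 of 13 tested fell, against 3.18% of all genes. Melanocyte markers summed to 5757 to 6017 RPKM on day 7 and 10530 to 11549 on day 14, and macrophage markers to 852 to 977 and 1384 to 1425. Fewer cells of a type and less RNA per cell cannot be told apart in such bulk samples.

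Of the 10 receptors, Met was by far the most abundant on both days and was the only one that rose past the test. Csf1r had a larger fitted change but a wider interval and just missed the call, which turned with the form of the weights. Kit was lower in every day 14 library on few reads. Axl and Erbb3 gave no call, and their libraries overlapped between the days. The test, limma on log2(RPKM + 1), covered the 6690 genes whose mean over the samples reached 20 CPM, reads scaled to library size only. It held 4 of the receptors, Met, Axl, Csf1r and Erbb3, with Erbb3 just inside at 28.3 CPM and Igf1r just outside at 18.3. Mertk at 14.6 CPM, Kit at 8.97, Tyro3 at 7.59, Fgfr1 at 1.5 and Pdgfrb at 1.2 were also under the minimum. At a limma adjusted p under 0.05, 1 of 4 receptors was higher and 0 lower, against 1.7% of all genes tested called higher and 3.18% lower. At an unadjusted p under 0.05, 2 were higher and 0 lower, against 11.3% and 8.18% of all genes. By limma-voom on the recovered reads, 2 were higher and 0 lower, against 10.7% and 8.27%. The median log2 fold change was 0.70 over the 4 receptors and 0.16 over all genes tested. Met, Csf1r and Fgfr1 lay higher in all 3 day 14 libraries than in all 3 of day 7, and Kit lower. That pattern held for 27.0% (higher) and 8.59% (lower) of all genes with a read, so 3 and 1 of 10 lie near the background.

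**Figure D1:**
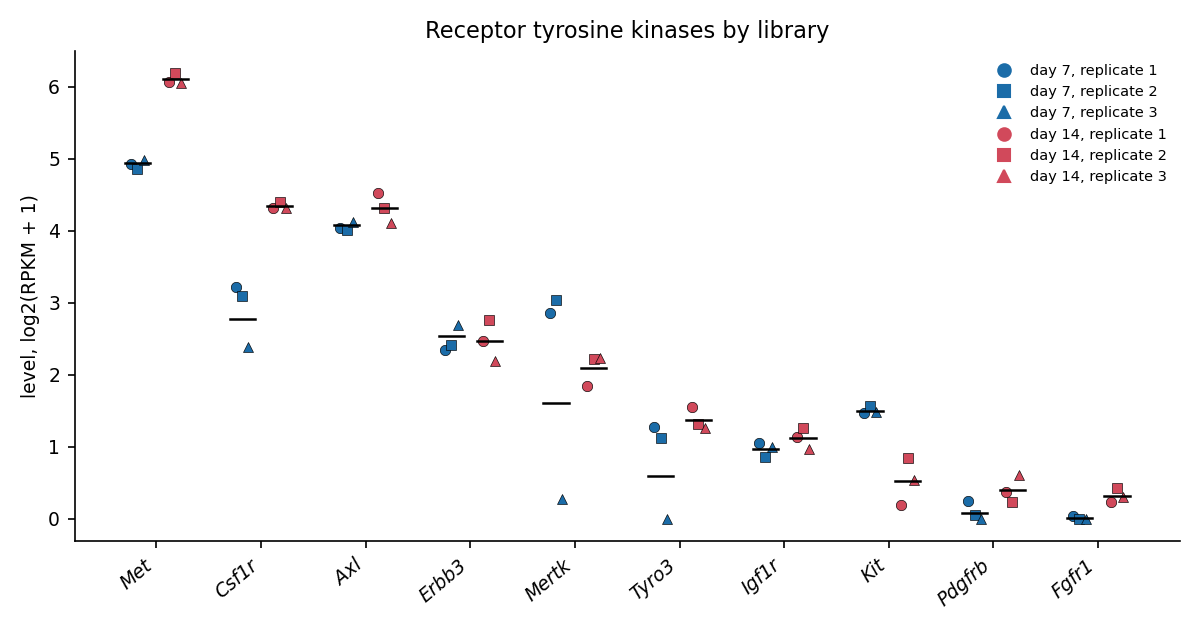
Level of each receptor in each library, as log2(RPKM + 1), with day 7 in blue and day 14 in red. Symbols mark the replicate number and bars the mean over the samples, with day 7 replicates 1 and 2 averaged first. The 3 day 14 values of Met (65.3 to 72.0 RPKM) sit above its day 7 values (28.0 to 30.6), while Mertk and Tyro3 show 1 day 7 library far below the other two.

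Met encodes the receptor of hepatocyte growth factor, which drives scattering, motility and survival of epithelial and melanoma cells. It lies on chromosome 6, 17463800 to 17573980, plus strand of GRCm38. Its level was 29.5, 28.0 and 30.6 RPKM in day 7 replicates 1 to 3 and 66.2, 72.0 and 65.3 RPKM in those of day 14. The libraries of each day lay close together and the days did not overlap. Met rose from 29.7 ± 1.3 RPKM (SD, n = 2) to 67.8 ± 3.6 (SD, n = 3), a 2.28-fold difference of the means. The log2 fold change of 1.16 had an SE of 0.25 and a 95% interval of 0.61 to 1.72 (limma adjusted p = 0.0235). It rested on 1535 to 2001 reads per day 7 library and 5790 to 6941 per day 14 library. Met made up 42.3% to 51.3% of the summed RPKM of the 10 receptors on day 7 and 56.1% to 58.7% on day 14. Of 11 melanocyte markers tested, 3 rose with it, the pigment genes Dct, Tyrp1 and Mlana, and 0 fell, against 1.7% and 3.18% of all genes. Their part in the Met values was not tested.

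Because Met was the receptor that rose, its start region is shown. RefSeq promoter windows (GRCm38.p6, 250 bases before to 50 after the start) were taken by symbol for 6 of the 10 receptors. Windows of Csf1r, Pdgfrb, Erbb3 and Fgfr1 were not searched, so the counts of matches do not cover these receptors. The windows taken were searched on both strands for CACGTG or CATGTG, bound by MITF, the master regulator of melanocytes. They were searched likewise for TGACTCA or TGAGTCA, bound by AP-1, which acts downstream of ERK. They were also searched for GAGGAA, bound by the myeloid factor PU.1, and for ACGTG or GCGTG, the core bound by hypoxia-inducible factors, which overlaps CACGTG. Met was the only one of the 6 with a CACGTG or CATGTG match, 126 bases before its RefSeq start at 17463957, and the only one with an AP-1 match, 54 bases before it. The gene model of the files starts earlier, so that the 2 matches begin at its bases 32 and 104. A hypoxia match was found in 5 of the 6 windows, all but that of Axl, with 3 in the Met window, of which 2 lie within CACGTG. The PU.1 letters were found in 2 windows, those of Kit and Axl. The 2 Met stretches of the plus strand, at chr6:17463819-17463848 and chr6:17463891-17463920, have the matched letters in capitals.
Met CACGTG: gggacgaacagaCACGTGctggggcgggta
Met TGAGTCA: ctgttgcccggcTGAGTCAcgggccgggca
Such letters are common, with CACGTG or CATGTG in 20.4% of all 32851 windows and an AP-1 match in 5.20%. A match describes the letters and does not show binding.

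Kit encodes the receptor of stem cell factor, which melanoblasts, mast cells and some lymphocyte precursors need. It lies on chromosome 5, 75574916 to 75656722, plus strand. Its level was 1.77, 1.95 and 1.79 RPKM on day 7 and 0.138, 0.786 and 0.455 RPKM on day 14. All 3 day 14 libraries lay below all 3 of day 7, and those of day 14 differed among themselves by more than those of day 7. The means were 1.83 ± 0.052 RPKM (SD, n = 2) and 0.460 ± 0.32 (SD, n = 3), 3.97-fold lower on day 14. Kit had 104 to 162 reads per day 7 library and 14 to 88 per day 14 library. Without the CPM minimum the log2 difference was -0.98 with a 95% interval of -2.49 to 0.54 (limma adjusted p = 0.418), so the difference did not pass the test. Of 8 mast cell markers, Mcpt4, Tpsb2, Fcer1a and Cma1 had no read in any library, and Cpa3, Ms4a2 and Gata2 had reads on day 14 only. Their sum, mostly Hdc, was 0.511 to 3.60 RPKM on day 7 and 3.38 to 3.88 on day 14. In each day 7 library 7 of the 8 had no read, so the sum there was Hdc alone. It cannot show whether mast cell content changed. The natural killer cell markers, with a summed level of 136 to 186 RPKM on day 7 and 16.6 to 21.5 on day 14, and the T cell markers moved the same way as Kit. Their part in the Kit values was not tested.

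The region before the Kit gene model is shown because Kit alone among the 10 was lower in every day 14 library. It spans chr5:75574737-75574915, plus strand, and capitals mark the PU.1 letters GAGGAA and the hypoxia letters GCGTG.
Kit: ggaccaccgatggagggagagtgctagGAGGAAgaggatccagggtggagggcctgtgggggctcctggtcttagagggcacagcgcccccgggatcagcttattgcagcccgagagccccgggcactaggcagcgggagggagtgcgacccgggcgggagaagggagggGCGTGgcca
GAGGAA was found in 28.3% of all windows and ACGTG or GCGTG in 43.8%. No letters of the MITF or AP-1 kind were found in the Kit window.

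Erbb3, the neuregulin receptor with little kinase activity of its own, signals by pairing with ErbB2 and marks melanocytes and Schwann cells. It lies on chromosome 10, 128567523 to 128589652, minus strand. Its level was 4.09, 4.32 and 5.45 RPKM on day 7 and 4.53, 5.78 and 3.57 RPKM on day 14. The highest and the lowest of the 6 values were both from day 14. The means were 4.83 ± 0.88 RPKM (SD, n = 2) and 4.63 ± 1.1 (SD, n = 3), with a log2 fold change of -0.06 and a 95% interval of -1.31 to 1.18 (limma adjusted p = 0.964). That interval leaves room for a 2-fold difference either way. Its sign turned without day 7 replicate 3 (0.09), without day 14 replicate 3 (0.08) and per T cell transcript (1.45). Schwann cell markers summed to 35.1 to 65.6 RPKM on day 7 and 66.3 to 70.9 on day 14.

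Axl, Mertk and Tyro3 form the TAM family, whose ligands Gas6 and protein S bridge the receptor to phosphatidylserine on dying cells. Axl is induced in macrophages, dendritic cells and invasive melanoma cells, Mertk serves the uptake of dead cells by macrophages, and Tyro3 is known in neurons and melanocytes. Axl was the most abundant of the 3 in every library and Tyro3 the least. Axl held 64.4% to 98.7% of their summed RPKM on day 7 and 76.2% to 83.0% on day 14.

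Axl lies on the minus strand of chromosome 7, 25757273 to 25788705. Its RPKM values were 15.4, 15.1 and 16.4 on day 7 and 22.0, 18.9 and 16.3 on day 14. Day 14 replicate 3 lay within the day 7 range, and the other two lay above it. The means were 15.9 ± 0.84 RPKM (SD, n = 2) and 19.1 ± 2.9 (SD, n = 3). The log2 fold change of 0.24 had an SE of 0.37 and a 95% interval of -0.58 to 1.07 (limma adjusted p = 0.77).

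Mertk lies on the plus strand of chromosome 2, 128698956 to 128802894. Its RPKM values were 6.25, 7.18 and 0.212 on day 7 and 2.57, 3.67 and 3.69 on day 14. Day 7 replicate 3 held 6 reads against 216 and 290 in replicates 1 and 2, so the day 14 values lay between the day 7 samples. The means were 3.46 ± 4.6 RPKM (SD, n = 2) and 3.31 ± 0.64 (SD, n = 3), and the day 7 mean describes neither sample. Without the CPM minimum the log2 difference was 0.48 with a 95% interval of -1.34 to 2.31 (limma adjusted p = 0.719), opposite in sign to the difference of the RPKM means.

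Tyro3, on the same chromosome and strand from 119797733 to 119818104, was split in the same libraries as Mertk. It was at 1.42 and 1.18 RPKM in day 7 replicates 1 and 2 with 70 and 68 reads, and replicate 3 held 0 reads. On day 14 it was at 1.93, 1.49 and 1.41 RPKM with 136, 116 and 116 reads. The day 14 replicate 3 value lay just under the highest day 7 value, so the days overlapped. The log2 difference without the CPM minimum was 0.78 with a 95% interval of -0.27 to 1.83 (limma adjusted p = 0.385).

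Csf1r encodes the receptor of CSF-1 and IL-34, which monocytes and macrophages need to survive. Its deposited gene model lies on chromosome 18, 61105572 to 61132149, plus strand. The GENCODE annotation starts the gene earlier, at 61100598. The Csf1r level was 8.27, 7.56 and 4.21 RPKM on day 7 and 19.0, 20.1 and 18.8 RPKM on day 14. The day 14 libraries lay close together and well above day 7, where replicate 3 was the lowest. The means were 6.06 ± 2.6 RPKM (SD, n = 2) and 19.3 ± 0.67 (SD, n = 3), 3.18-fold higher on day 14. The log2 fold change of 1.57 had an SE of 0.42 and a 95% interval of 0.65 to 2.50, and the limma adjusted p of 0.0581 missed the threshold. This call depends on the precision weights. With 10 other forms of the weight trend, tried after seeing the data, the limma adjusted p was 0.0107 to 0.0536 and under the threshold in 9. Over all 25 alternatives it ranged from 1.74e-05 to 0.0936, and Csf1r was called higher in 15. The lowest value came per T cell transcript, where 94.1% of all genes were called higher. Another of the 15 left out day 7 replicate 3, which left a lone day 7 sample, with a log2 fold change of 1.19. Without weights, by limma-voom and with 6 libraries counted singly, 8.98%, 10.7% and 13.7% of all genes were called higher. Exons of Hmgxb3, on the opposite strand, overlap those of Csf1r, and the strand setting of the counting is not given in the sources used here. Hmgxb3 was at 3.20 to 9.41 RPKM on day 7 and 4.52 to 6.27 on day 14.

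Some macrophage markers moved with Csf1r and others did not. Of 10 tested, Lyz2, C1qa, C1qb, Apoe and Mrc1 rose, which is 5, and 0 fell, against 1.7% and 3.18% of all genes, with a list median log2 fold change of 0.57 against 0.16 over all genes. The mannose receptor Mrc1 rose from 11.5 to 37.4 RPKM and the complement chain C1qa from 16.1 to 51.0 RPKM. The F4/80 gene Adgre1, at 23.9 and 19.6 RPKM, C1qc, at 18.7 and 17.0, and Fcgr1, at 25.1 and 16.6, were lower by mean without a call. Of all 13 markers, 9 lay higher in every day 14 library and 1, Fcgr1, lower. That pattern held for 27.0% and 8.59% of all genes with a read. The part of macrophage content in the Csf1r values was not tested.

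**Figure D2:**
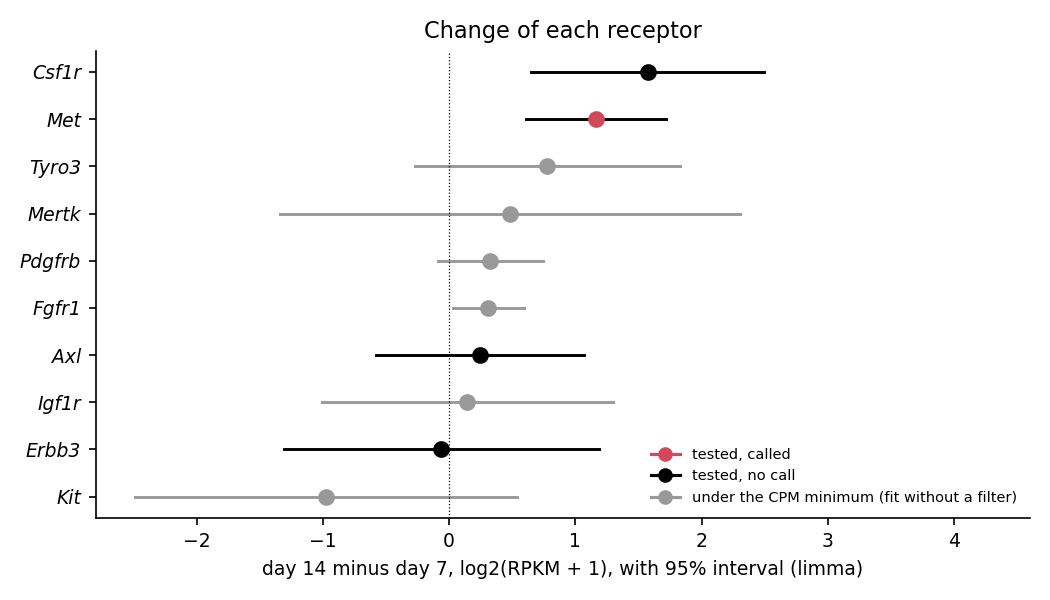
Difference between day 14 and day 7 for each receptor on the log2(RPKM + 1) scale, with 95% intervals from limma. Red marks the called gene Met at 1.16, black the 3 tested genes without a call, and grey the 6 genes under 20 CPM, taken from the fit without a minimum. The interval of Csf1r (0.65 to 2.50) lies above 0, while those of Axl and Erbb3 span it.

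Igf1r, the receptor of insulin-like growth factors, was at 1.08, 0.806 and 0.986 RPKM on day 7 and 1.19, 1.39 and 0.948 RPKM on day 14 (chromosome 7, 67952827 to 68233668, plus strand). The days overlapped, and the log2 difference without the CPM minimum was 0.14 with a 95% interval of -1.01 to 1.29 (limma adjusted p = 0.872). At this low level its long transcript had 108 to 144 reads per day 7 library and 212 to 293 per day 14 library.

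Pdgfrb and Fgfr1, receptors of platelet-derived and fibroblast growth factors typical of pericytes and fibroblasts, were near the limit of detection. Pdgfrb (chromosome 18, 61045150 to 61085061, plus strand) ends 20510 bases before the start of the deposited Csf1r gene model. It held 8, 2 and 0 reads on day 7 and 18, 12 and 38 on day 14. Its level was at most 0.183 RPKM on day 7 and 0.174 to 0.521 on day 14, so the days overlapped. Fgfr1 (chromosome 8, 25513654 to 25575718, plus strand) held 2, 0 and 0 reads on day 7 and 20, 42 and 30 on day 14, which is 0.178 to 0.339 RPKM. The limma adjusted p without the CPM minimum was 0.364 for Pdgfrb and 0.209 for Fgfr1. Gm16159 overlaps Fgfr1 exons on the opposite strand and had no reads. Fibroblast markers summed to 1.59 to 2.59 RPKM on day 7 and 1.29 to 1.78 on day 14. Pericyte and smooth muscle markers summed to 5.90 to 15.7 and 6.37 to 8.17 RPKM. Neither sum was higher on day 14 beyond the day 7 range. Of the 8 pericyte and smooth muscle genes, however, 6, 3 and 6 had no read in day 7 replicates 1 to 3. On day 14 these numbers were 1, 3 and 1. The part of such cells in the Pdgfrb and Fgfr1 values was not tested.

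By mean RPKM the order on day 14 was Met, Csf1r, Axl, Erbb3, Mertk, Tyro3, Igf1r, Kit, Pdgfrb and Fgfr1. Csf1r and Axl overlapped there, as did Erbb3 and Mertk, and as did Kit, Pdgfrb and Fgfr1. On day 7 Axl stood above Csf1r in all 3 libraries, at 15.1 to 16.4 against 4.21 to 8.27 RPKM. Kit stood sixth by mean on day 7, above Igf1r in all 3 libraries, and eighth on day 14, below Igf1r in all 3.

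Each receptor was also set against the markers of the cell type it is best known from, as RPKM per 1000 RPKM summed over the list. Csf1r stood at 4.94 to 8.47 per 1000 of the macrophage list on day 7 and at 13.2 to 14.5 on day 14, so it differed by more than the list did. Axl went the other way, with 15.8 to 19.3 on day 7 and 11.4 to 15.5 on day 14, and neither pair of ranges overlapped. Apoe made up 49.3% to 58.3% of that list's sum, and without it Csf1r stood at 11.9 to 18.1 and 26.8 to 28.6. Met stood at 4.65 to 5.32 per 1000 of the melanocyte list on day 7 and 5.66 to 6.83 on day 14. Dct, a pigment enzyme, held 77.0% to 83.8% of that sum, and without Dct the Met values were 21.7 to 23.1 and 34.9 to 36.9. Erbb3 stood lower on this scale, at 0.699 to 0.947 on day 7 and 0.309 to 0.549 on day 14, and Kit at 0.303 to 0.324 and 0.0126 to 0.0747. Per 1000 RPKM of the CD8 T cell list the Kit values of both days overlapped, with 3.09 to 3.52 on day 7 and 0.931 to 5.27 on day 14. These ratios are a description by library and were not tested.

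**Figure D3:**
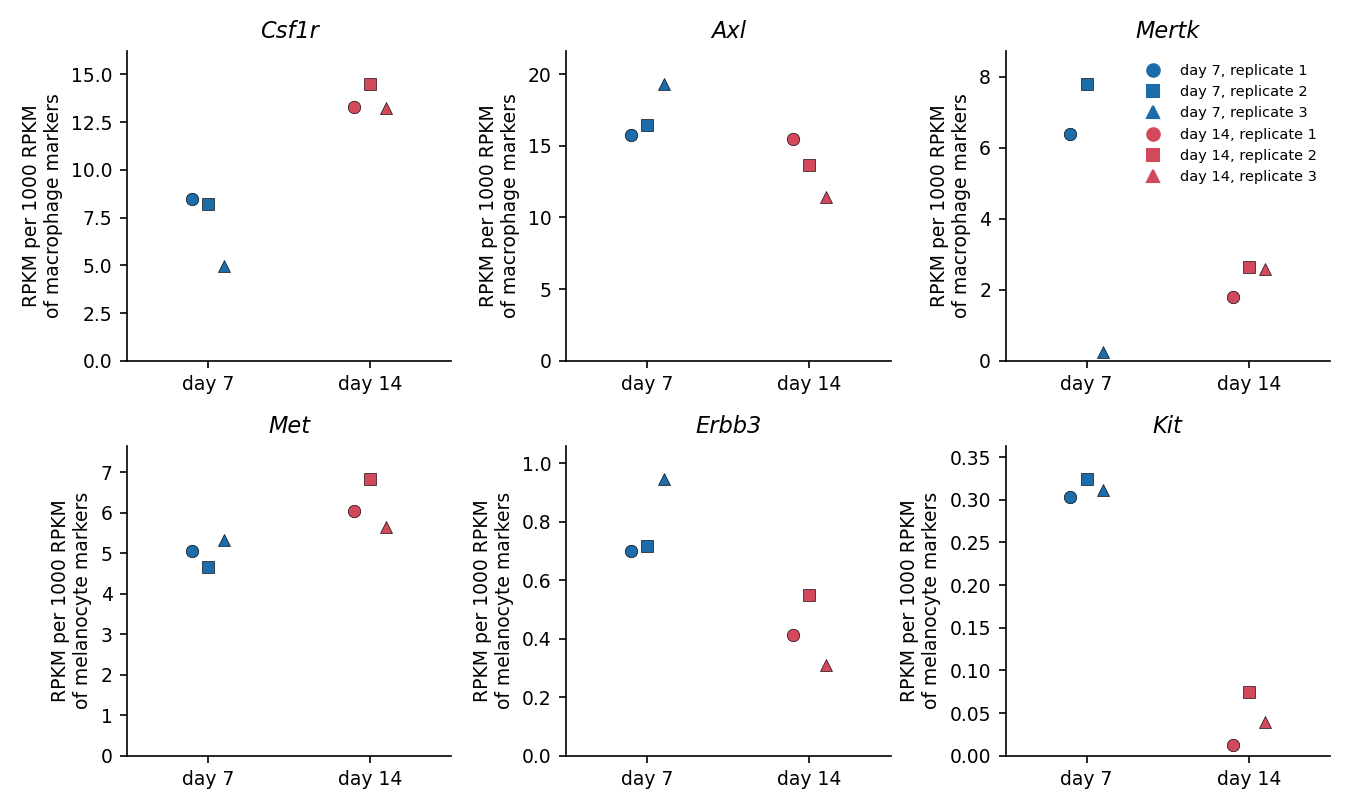
Receptor level per 1000 RPKM summed over macrophage markers (Csf1r, Axl and Mertk, top) or melanocyte markers (Met, Erbb3 and Kit, bottom), 1 point per library with symbols for the replicate. Csf1r and Met are higher in every day 14 library on this scale, and Axl, Erbb3 and Kit lower, while Mertk overlaps through day 7 replicate 3.

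Ligand genes were mostly rare in these libraries. Of 18 with a row, 2 passed the CPM minimum, and 0 were called in either direction by limma, at an unadjusted p under 0.05 and by limma-voom. Of all genes, 4.89%, 19.5% and 18.9% were called either way by these rules. Csf1, the ligand of Csf1r, was at 3.71, 2.24 and 8.45 RPKM on day 7 and 4.57, 6.06 and 4.21 RPKM on day 14. Its log2 fold change was -0.06 with a 95% interval of -1.26 to 1.15 (limma adjusted p = 0.966). Its sign turned in 7 of 25 alternatives, and without day 7 replicate 3, which left a lone day 7 sample, the log2 fold change was 0.57. Il34, the other Csf1r ligand, had no read in any library. Lgals3, the other one tested, codes for galectin-3, a lectin described as a Mertk ligand. Its mean was 62.7 RPKM on day 7 and 59.9 on day 14 (limma adjusted p = 0.874). All 18 ligands together summed to only 48.1 and 47.5 RPKM in day 7 replicates 1 and 2, against 113 in replicate 3. The Lgals3 mean of day 7 thus lies above both of these replicates and describes neither day 7 sample.

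Hgf, the ligand of Met, was at 0.698, 1.02 and 0 RPKM on day 7 and 0.037, 0.377 and 0.031 RPKM on day 14. The receptor was thus far above its ligand in every library. Gas6, the ligand of all 3 TAM receptors, was at 3.13 to 5.52 RPKM on day 7 and 4.07 to 5.47 on day 14 and overlapped. Pros1, the gene of protein S, was at 0.123, 0.315 and 2.48 RPKM on day 7 and 7.13, 4.79 and 4.81 RPKM on day 14, all 3 above day 7. Without the CPM minimum its limma adjusted p was 0.203. Kitl, the ligand of Kit, held no reads on day 7 and was at 0.078 to 0.442 RPKM on day 14, where Kit itself was lower. Nrg1, a ligand of Erbb3, likewise had none on day 7 and was at 0.200 to 0.526 RPKM on day 14. Fewer genes had a read in each day 7 library (13129 to 13803) than on day 14 (18315 to 19050). Absence on day 7 was thus not particular to these ligands.

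Igf1 was at 0.371 to 0.431 RPKM on day 7 and 1.61 to 2.33 on day 14 (limma adjusted p = 0.112 without the CPM minimum), and Igf2 was at or near 0 in every library. Pdgfb, a ligand of Pdgfrb made by many lymphoid and endothelial cells, was at 2.62 to 3.64 RPKM on day 7 and 0.12 to 0.873 on day 14 (limma adjusted p = 0.301 without the minimum). Among the fibroblast growth factors, Fgf1 had no reads on day 7 and was at 0.776 to 2.19 RPKM on day 14. It was the 1 of 16 ligands with a read that was called higher without the CPM minimum (limma adjusted p = 0.014), where 5.2% of all genes were called higher. Fgf2 lay the other way, at 0.362 to 2.93 RPKM on day 7 and 0.094 to 0.155 on day 14, without a call.

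**Figure D4:**
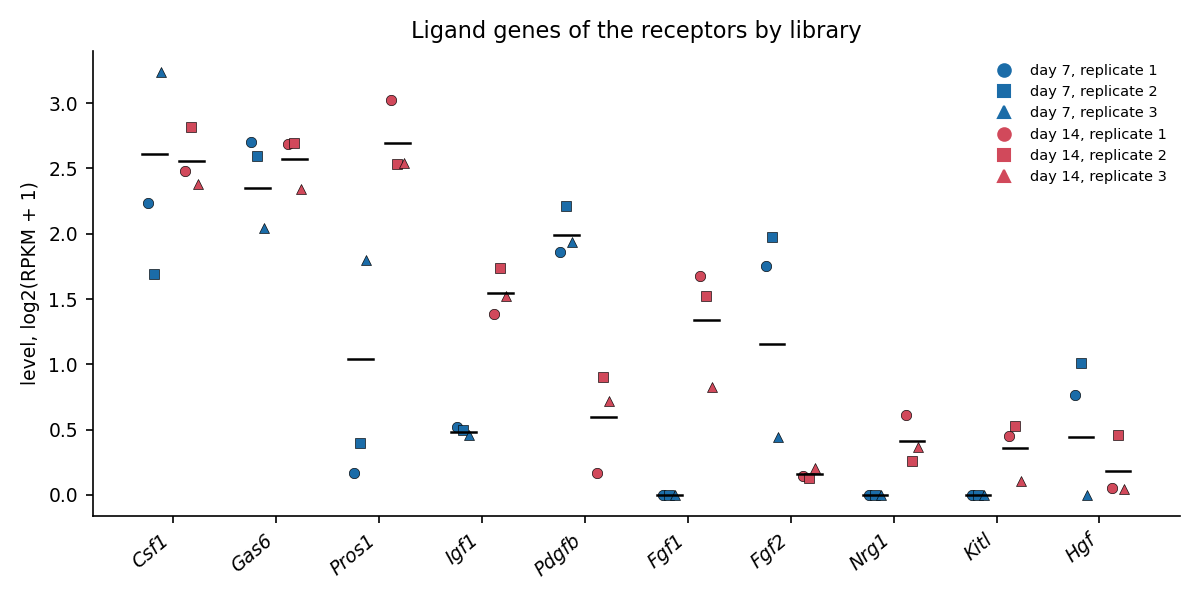
Level of 10 ligand genes in each library, as log2(RPKM + 1), with day 7 in blue, day 14 in red and bars for the mean over the samples. Pros1, Igf1, Fgf1, Nrg1 and Kitl are higher in all 3 day 14 libraries, Pdgfb and Fgf2 lower, and Csf1, Gas6 and Hgf overlap. Of all 18 ligands with a row, 6 are higher and 2 lower in this way. The pattern held for 27.0% and 8.59% of all genes with a read, so these counts lie near the background.

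Of 38 other receptor tyrosine kinases with a row, 4 passed the CPM minimum and 0 were called by limma, with 2 higher at an unadjusted p under 0.05 and 2 higher by limma-voom. Of all genes, 1.7%, 11.3% and 10.7% were higher by these rules. The ephrin receptor Epha3 was at 4.48, 3.95 and 6.99 RPKM on day 7 and 13.6, 16.3 and 15.6 RPKM on day 14, with a log2 fold change of 1.32 and a limma adjusted p of 0.142. Lmtk2, a kinase of endosome traffic, had a log2 fold change of 1.32 (limma adjusted p = 0.183). The collagen receptors Ddr1 and Ddr2 had log2 fold changes of 0.55 and 0.58 and no call. The median of the 4 was 0.95, above the 0.70 of the receptors followed here. Erbb2, the partner of Erbb3, was under the minimum, at 0, 0 and 0.471 RPKM on day 7 and 1.28, 1.60 and 1.80 RPKM on day 14. Without the minimum, Styk1, a kinase known from natural killer cells, was the 1 of 34 called lower (limma adjusted p = 0.0446, against 1.25% of all genes), at 5.91 to 8.31 RPKM on day 7 and 0.692 to 0.947 on day 14.

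Adaptors and kinases that carry the signal inward gave no call in 28 tested genes, with 4 higher and 2 lower at an unadjusted p under 0.05 and the same counts by limma-voom. Of all genes, 11.3% were higher and 8.18% lower at that p, and 10.7% and 8.27% by limma-voom, so 6 of 28 lies near the background. Their median log2 fold change was -0.11, and they ranged from Pik3cd, the leukocyte PI3K subunit, at -1.03 to Mapk3, the ERK1 gene, at 1.39. Among 19 tested genes that brake or turn over the receptors, Ptpn6, the phosphatase SHP-1 of blood cells, fell from 179 to 86.8 RPKM and 0 rose, against 3.18% and 1.7% of all genes. Its log2 fold change was -1.03 with a 95% interval of -1.38 to -0.68 (limma adjusted p = 0.0035), and CD8 T cell and natural killer cell markers were lower in the same libraries, whose part in it was not tested. The other 18 gave no call. Of all 19, 4 were higher and 2 lower at an unadjusted p under 0.05 (11.3% and 8.18% of all genes), and 3 and 3 by limma-voom (10.7% and 8.27%). Their median was 0.21. Hgs, which sorts internalised receptors to lysosomes, came closest at 15.0 and 36.5 RPKM (limma adjusted p = 0.0513).

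Genes that ERK activity is known to induce gave no call among 5 tested, with 2 higher at an unadjusted p under 0.05 (11.3% of all genes) and 1 by limma-voom (10.7%). Dusp6, a phosphatase that acts back on ERK and also stands among the brakes, was at 2.51, 1.84 and 7.40 RPKM on day 7 and 16.1, 15.3 and 12.7 RPKM on day 14 (log2 fold change 1.60, limma adjusted p = 0.144). Phlda1 was at 54.0 and 93.0 RPKM (limma adjusted p = 0.0731), and Ccnd1, Myc and Egr1 had log2 fold changes of 0.17, 0.07 and -0.28. The median of these 5 genes, 0.17, lay close to the 0.16 of all genes tested.

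Among all genes tested, those whose 6 values ran most like a receptor's were found by the mean absolute distance of centred log2(RPKM + 1) values over the 6 libraries. For Met they were Ero1l, an oxidase of the endoplasmic reticulum, at a distance of 0.038 and the lipid peroxide reductase Gpx4 at 0.059. Ero1l was at 32.5 to 34.2 RPKM on day 7 and 70.3 to 76.4 on day 14. For Csf1r they were the methionine synthase gene Mtr and Lrp1, a scavenger receptor also made by macrophages, both at 0.052. Lrp1 was at 6.08, 6.52 and 3.06 RPKM on day 7 and at 14.3, 15.6 and 14.2 RPKM on day 14. For Axl they were Fbxw2 (0.050) and Pgd (0.053), and for Erbb3 Vps33b (0.064) and Nckap1l (0.064). With 6 libraries and 6690 genes these are descriptions only.

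**Figure D5:**
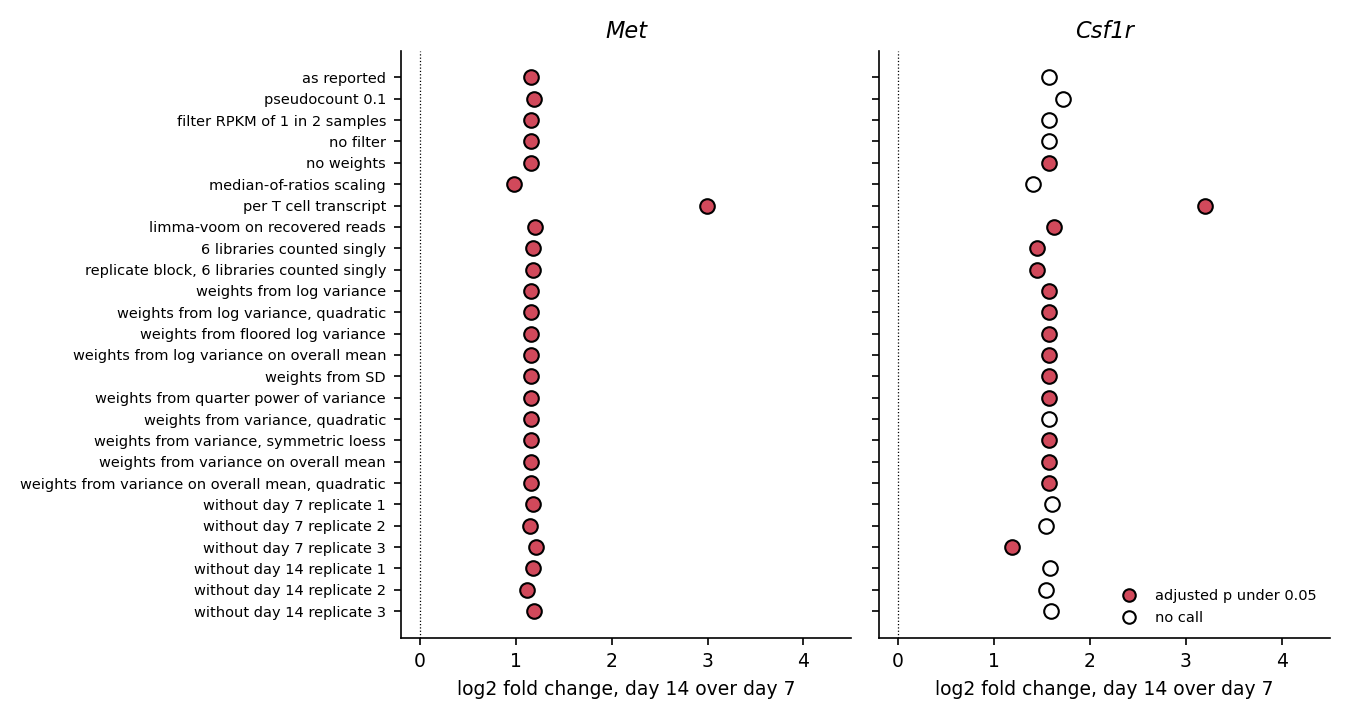
Log2 fold change of Met and Csf1r as reported and under each of the 25 alternatives, filled where the adjusted p was under 0.05. Met is filled in all 25 and Csf1r in 15, and both lie above 0 throughout. The alternatives include the setting per T cell transcript, where 94.1% of all genes were called higher.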

How the data were processed

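Paired reads came from stranded poly-A libraries that carry molecular identifiers, per the labels' protocols. Reads were trimmed with Trimmomatic 0.36 and counted with featureCounts (Subread 1.5.1), with GRCm38 as the build, per the submitters' processing notes. Aligner, identifier use and strand setting: not given in the sources used here. The authors deposited RPKM with a gene length, and RPKM times length gave whole reads (tolerance 0.001).

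Genes at 20 CPM or more on average were fitted with limma 3.58.1 in R 4.3.3 on log2(RPKM + 1). Precision weights for each day were the inverse of the variance predicted from the mean by loess (degree 1, span 0.3, floor 0.005). Calls need a Benjamini-Hochberg adjusted p under 0.05 over all genes tested. The script was tested on simulated data. After seeing the data, 10 other forms of the trend were tried to match an earlier count of calls from these data. None matched it, and the form first fitted was kept.

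Receptors, lists and tests were chosen with earlier results of these data known. Named genes are the 10 receptors, called list members, ligands of tested receptors and the 2 nearest patterns of each. Uncalled list members, ligands of untested receptors and genes called without the CPM minimum were named after their values were seen. Rows that share a gene name were left out. Per T cell transcript means divided by the summed RPKM of 12 T cell genes. Replicate numbers were not treated as pairs.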

Additional observations from a re-analysis of the deposited data

How the results depend on the processing

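Met kept its direction and call in all 25 alternatives, with a log2 fold change of 0.98 to 3.0, and 0 receptors were called lower in any of them. The receptors called higher numbered 1 as reported and 4 per T cell transcript, where the median of all genes moved from 0.16 to 1.85 and 94.1% of genes were called higher. They numbered 2, Met and Csf1r, without weights, by limma-voom, with 6 libraries counted singly, with the replicate block and in 9 of the 10 weight forms added after seeing the data. Leaving out any 1 library other than day 7 replicate 3 gave 1, where 0.912% to 1.7% of all genes were called higher. Without day 7 replicate 3 a lone day 7 sample remained, and the log2 fold changes were 1.21 for Met and 1.19 for Csf1r. Erbb3 turned to 1.45 per T cell transcript, and leaving out 1 library gave -0.21 to 0.094. Csf1 turned to 1.46 per T cell transcript, 0.16 by limma-voom and 0.17 with 6 libraries counted singly or with the replicate block, and leaving out 1 library gave -0.18 to 0.57. The cause was not tested.

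All genes called numbered 327 as reported (114 higher, 213 lower), 1481 with an RPKM of 1 in 2 samples as the filter, 1465 without a filter, 1011 without weights and 6312 per T cell transcript. They were 1267 by limma-voom, 1563 with 6 libraries counted singly and 1152 with the replicate block. Among the added weight forms, those from the log of the variance gave 650, 660 (quadratic), 694 (floored) and 675 (on the overall mean), the fourth root of the variance gave 505, and the others 219 to 437. Leaving out 1 library gave 249 to 3900, the highest without day 7 replicate 3, where the lone day 7 sample was assumed to vary like day 14. Median-of-ratios scaling gave 56 higher and 300 lower with a median of -0.01. The labels do not say that replicate numbers pair libraries, and deviations of same-numbered libraries correlated at -0.021 to -0.0091. For receptors near 0 the log2(RPKM + 1) scale understates differences and narrows their intervals.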
